A study of Mus musculus with 10 samples.

Results

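The genes described here encode the small leucine-rich proteoglycans (SLRPs) *Dcn*, *Bgn*, *Aspn*, *Fmod*, *Lum*, *Kera*, *Prelp*, *Omd*, *Ogn* and *Podn*. They were taken by gene symbol, and all 10 were among the 23080 genes of the deposited table and among the 16267 genes that passed the filter on low counts. Bulk RNA-seq was performed on the mouse anterior fontanelle (AF), the connective tissue that spans the gap between the calvarial bones, at E18.5. 5 libraries were labelled WT, with no other allele given, and the other 5 were labelled NCC *Fgfr2* KO with the genotype *Wnt1-Cre*; *Fgfr2*fl/fl. *Wnt1-Cre* recombines the floxed *Fgfr2* allele in neural crest cells and their descendants, so cells of other origin in the excised tissue keep the receptor. By the study's methods, the samples mix bone cells with fibrous suture cells, and neither scalp skin nor brain was meant to be in them. The study describes the embryos as littermate pairs, but the labels do not say which libraries form a pair, so all tests are unpaired and p-values measure the spread between these libraries.

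SLRPs are secreted proteins built of leucine-rich repeats, and most carry chondroitin, dermatan or keratan sulfate chains. They bind fibrillar collagens, set the spacing and width of collagen fibrils in tendon, cornea, dermis and bone, and hold growth factors such as TGFβ in the matrix. Class I comprises decorin, biglycan and asporin. Class II comprises fibromodulin, lumican, keratocan, PRELP and osteomodulin. Class III includes osteoglycin, and class V includes podocan. In the mouse, knockouts of biglycan and fibromodulin have been studied for weak tendons and low bone mass. The comparison asks whether transcripts of this family differed between the AF of mutants and controls.

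Several SLRP genes lie in clusters, and none of the gaps between the neighbours given here holds another protein-coding gene. On chromosome 13 (mm10), *Ecm2*, *Aspn* (chr13:49544443-49567565), *Omd* (chr13:49582462-49592822) and *Ogn* (chr13:49608046-49624501) follow each other on the plus strand, with gaps of 11.7, 14.9 and 15.2 kb. All of them lie within the span of *Cenpp*, a kinetochore gene on the opposite strand, and *Aspn* shares 7 exon bases with it. On chromosome 10, *Dcn* (chr10:97479609-97518143), *Lum* (chr10:97565128-97572703), *Kera* (chr10:97606879-97613692) and *Epyc* follow each other on the plus strand, with gaps of 47.0, 34.2 and 30.4 kb. On chromosome 1, *Prelp* (chr1:133910304-133921414, minus strand) and *Fmod* (chr1:134037254-134048277, plus strand) are 116 kb apart. *Bgn* (chrX:73483602-73495933, plus strand) and *Podn* (chr4:108014791-108096445, minus strand) stand alone.

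The sequences upstream of 5 of these genes are shown because *Aspn*, *Omd* and *Ogn* are neighbours with fitted log2 fold changes of 0.12, -0.06 and 0.24 below. *Fmod* and *Bgn* are added as the pair with the highest Pearson's r over the libraries. Neither the ratio of *Omd* to *Ogn* nor that of *Aspn* to *Ogn* passed after adjustment in the comparison of the labels below. RefSeq start sites (GRCm38.p6) were matched for 8 of 10 genes. Each sequence is the 250 bases before the start site, 5′ to 3′ on the gene's strand, which is the plus strand for all of them. Capitals mark TATAAA, the TATA box letters, and CANNTG, the E-box letters that basic helix-loop-helix factors such as scleraxis bind, on either strand. The windows are chr13:49544193-49544442 for *Aspn*, chr13:49582212-49582461 for *Omd*, chr13:49607765-49608014 for *Ogn*, chr1:134037004-134037253 for *Fmod* and chrX:73483351-73483600 for *Bgn*.
Aspn: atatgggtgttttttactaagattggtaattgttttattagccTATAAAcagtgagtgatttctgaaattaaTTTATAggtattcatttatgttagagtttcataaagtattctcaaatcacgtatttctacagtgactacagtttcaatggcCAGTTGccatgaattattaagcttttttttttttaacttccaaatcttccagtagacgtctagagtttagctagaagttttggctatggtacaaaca
Omd: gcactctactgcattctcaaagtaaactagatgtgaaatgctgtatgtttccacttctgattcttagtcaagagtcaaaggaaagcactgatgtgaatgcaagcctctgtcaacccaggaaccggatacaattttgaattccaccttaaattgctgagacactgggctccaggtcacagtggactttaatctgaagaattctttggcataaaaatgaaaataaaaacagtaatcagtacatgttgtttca
Ogn: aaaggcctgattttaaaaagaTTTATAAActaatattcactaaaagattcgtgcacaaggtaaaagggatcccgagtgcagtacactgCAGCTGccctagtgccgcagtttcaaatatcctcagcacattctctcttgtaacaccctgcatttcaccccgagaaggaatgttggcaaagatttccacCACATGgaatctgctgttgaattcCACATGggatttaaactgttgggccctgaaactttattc
Fmod: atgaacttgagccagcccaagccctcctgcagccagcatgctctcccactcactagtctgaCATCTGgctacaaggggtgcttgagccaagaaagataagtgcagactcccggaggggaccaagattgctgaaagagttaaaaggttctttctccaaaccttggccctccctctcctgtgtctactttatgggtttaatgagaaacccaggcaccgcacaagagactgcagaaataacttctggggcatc
Bgn: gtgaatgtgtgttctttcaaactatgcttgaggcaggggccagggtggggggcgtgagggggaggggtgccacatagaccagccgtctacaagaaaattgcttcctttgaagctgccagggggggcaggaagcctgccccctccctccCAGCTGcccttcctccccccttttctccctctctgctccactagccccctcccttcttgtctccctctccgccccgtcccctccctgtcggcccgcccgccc

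The sequence upstream of *Aspn* was the poorest in G and C of the 5, at 30.0%, against 38.4% for *Omd*, 42.0% for *Ogn*, 51.2% for *Fmod* and 64.4% for *Bgn*. The median over all windows of that length was 52.4%. TATAAA had 2 matches each before *Aspn* and *Ogn*, where the 2 before *Ogn* overlap on opposite strands, and no match before *Omd*, *Fmod* or *Bgn*. It was present in 12.4% of the 32851 windows of 250 bases. CANNTG had 3 matches before *Ogn*, 1 each before *Aspn*, *Fmod* and *Bgn*, and none before *Omd*, and 66.2% of all windows held it. CTTTG, the core letters bound by TCF and LEF factors, had 3 matches before *Omd* and 1 each before *Ogn* and *Bgn* (48.6% of all windows). ACCAC, the core letters bound by RUNX factors, had 1 match before *Ogn*, which overlaps a CANNTG match (35.3% of all windows). All motifs were searched on both strands, and a match is a description of letters only.

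*Fgfr2*, the gene targeted in the mutants, went against the labels when the counts of the whole gene were taken. Its level was 176 to 235 CPM, the count scaled by library size and TMM, in the libraries labelled WT and 273 to 357 CPM in those labelled KO, with no overlap (log2 fold change 0.67 ± 0.09 SE, adjusted p = 0.0487 in edgeR's quasi-likelihood test, and 0.0090 to 0.260 without single libraries). The table does not divide the counts by exon, so the deleted part could not be read separately. The groups are therefore called control-labelled and mutant-labelled libraries. Total counts were between 20774667 and 28515434 per library, of which ribosomal RNA genes took 18.7% to 33.6%. The 17 bone genes summed to 89408 to 128858 CPM, most of it from *Col1a1* and *Col1a2*, which fibroblasts also make. Of the bone genes with narrower expression, *Sp7* was at 168 to 237 CPM, *Ifitm5* at 36.9 to 61.8 CPM and *Mepe* at 11.7 to 43.2 CPM. The 7 epidermal genes summed to 10.5 to 17.9 CPM. Control 2 and mutant 1 stood apart in 8 skeletal muscle genes, at 757 and 749 CPM against 18.6 to 147 CPM elsewhere. Mutant 1 also stood apart in 10 genes of hypodermal fibroblasts, at 1063 CPM against 369 to 528 CPM, and mutant 2 in 7 neuron and Schwann cell genes, at 314 CPM against 43.1 to 136 CPM. Mutant 3 had the highest sum of 8 meningeal genes, at 544 CPM against 349 to 466 CPM. Of these genes, *Foxc1*, *Cxcl12*, *Crabp2* and *Aldh1a2* were each highest in another library. Mutant 3 was also the highest library for *Bgn*, *Fmod*, *Prelp* and *Ogn*. The part of these cell types in the values below was not tested beyond the fits without the libraries named here.

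SLRP transcripts were abundant in the AF. The 10 genes summed to 3773 ± 399 CPM (SD, n = 5) in control-labelled libraries and to 3921 ± 296 CPM in mutant-labelled libraries. Per kb of merged exons, *Bgn* had the highest level in control-labelled libraries, at 275 ± 32.6 CPM per kb, followed by *Lum* at 206 ± 17.7, *Aspn* at 174 ± 23.7, *Ogn* at 119 ± 11.9, *Dcn* at 87.6 ± 15.8 and *Fmod* at 77.6 ± 9.54. *Bgn* ranked 98th and *Fmod* 344th of 22533 genes with a length. A gap separated these from *Prelp*, at 14.4 ± 1.89 CPM per kb, and *Omd*, at 14.1 ± 1.83 CPM per kb. *Podn* followed at 4.87 ± 0.68 and *Kera*, a corneal proteoglycan, at 1.03 ± 0.63 CPM per kb. The ranges of neighbours in this order overlapped for *Lum* and *Aspn*, *Ogn* and *Dcn*, *Dcn* and *Fmod*, and *Prelp* and *Omd*, but within a library *Lum* exceeded *Aspn*, *Ogn* exceeded *Dcn* and *Dcn* exceeded *Fmod* in 5 of 5 control-labelled libraries. *Prelp* exceeded *Omd* in 3 of 5, so this pair cannot be ordered beyond its spread. With the longest transcript as the length the order was the same, and *Bgn* then stood at 629 CPM per kb, by a transcript of 1 exon. Both lengths come from the annotation, and which transcripts these libraries hold was not measured. *Dcn*, at 511 CPM, was divided by 5838 or 4692 bases, and *Lum*, at 505 CPM, by 2448 bases. The place of *Dcn* in this order therefore cannot be settled from these lengths.

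**Figure D1:**
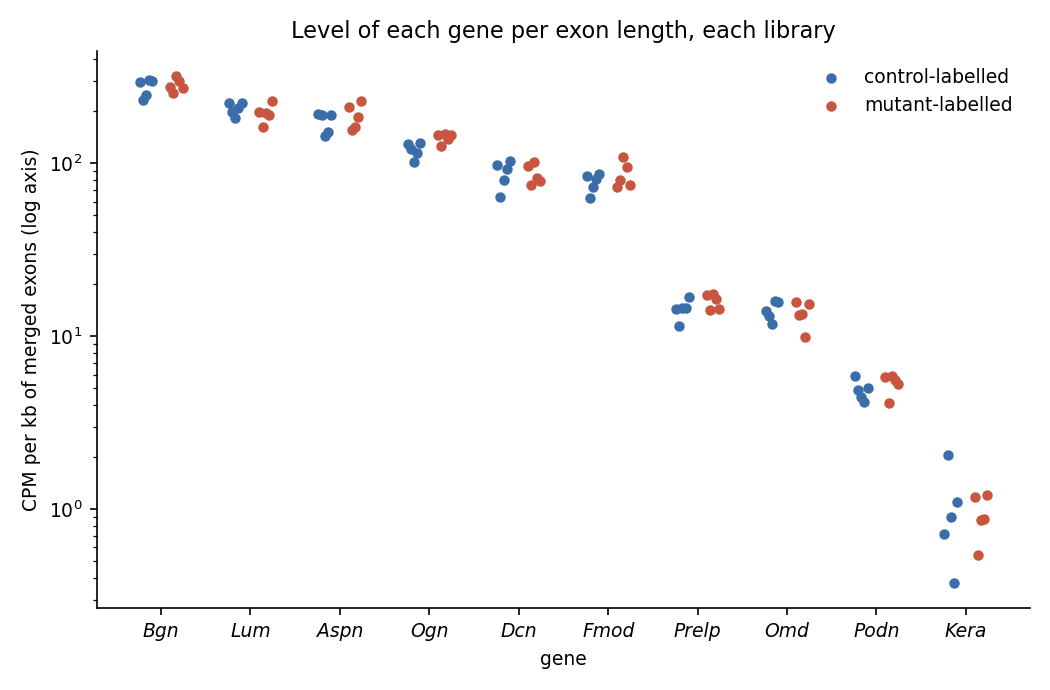
Level of each SLRP gene in CPM per kb of merged exons on a log axis, one point per library, control-labelled in blue and mutant-labelled in red. 6 genes sit between 63.2 and 319 CPM per kb in every library, and *Kera* lies lowest.

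None of the 10 genes passed an adjusted p of 0.05 in edgeR's quasi-likelihood test, and 0.0184% of all genes tested did (3 of 16267). DESeq2 also called 0 of the 10, with 0.596% of all genes called. At an unadjusted p under 0.05, 1 of the 10 passed, *Ogn*, which was higher in mutant-labelled libraries, against 7.49% of all genes tested in either direction and 3.68% in that direction. 0 of the 10 had groups that did not overlap, against 1.48% of all genes. The fitted log2 fold changes of 6 genes lay above 0 and those of 4 below, with a median of 0.08 beside 0.0007 over all genes tested. Without single libraries this median was 0.039 (without mutant 3) to 0.14 (without mutant 2), with 0.044 without control 3 and 0.050 without mutant 5, and it was 0.036 with library size alone. In bulk tissue, fewer cells of a type and less RNA per cell cannot be told apart, for any of these values.

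*Ogn* encodes osteoglycin, also called mimecan, a class III SLRP of bone and fibrous connective tissue. Its levels in control-labelled libraries 1 to 5 were 330.5, 308, 260.3, 296 and 336 CPM, and in mutant-labelled libraries 1 to 5 they were 372, 324, 378, 353 and 376 CPM. 4 of the 5 mutant-labelled libraries lay above every control-labelled one, and mutant 2 lay within the control range. The means were 306 ± 30.5 and 361 ± 22.7 CPM (SD, n = 5), with a log2 fold change of 0.24 ± 0.08 SE and a 95% interval of 0.07 to 0.40. The unadjusted p was 0.0105 and the adjusted p 0.522 in edgeR's quasi-likelihood test, and the two-sided exact permutation test gave p = 0.0238, where 0.00794 is the smallest value that 5 against 5 libraries allow. Among the other fits the fold change stayed between 0.19 and 0.30, and with scaling by library size alone it was 0.19 with an unadjusted p of 0.0867 in edgeR. Without control 2 and mutant 1 the fold change was 0.24, with an unadjusted p of 0.0305 in edgeR, and the difference in mean log2 CPM was 0.23, with an exact permutation p of 0.0857. *Ogn* took 7.54% to 9.24% of the summed CPM of the 10 genes in control-labelled libraries and 8.86% to 9.48% in mutant-labelled libraries.

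**Figure D2:**
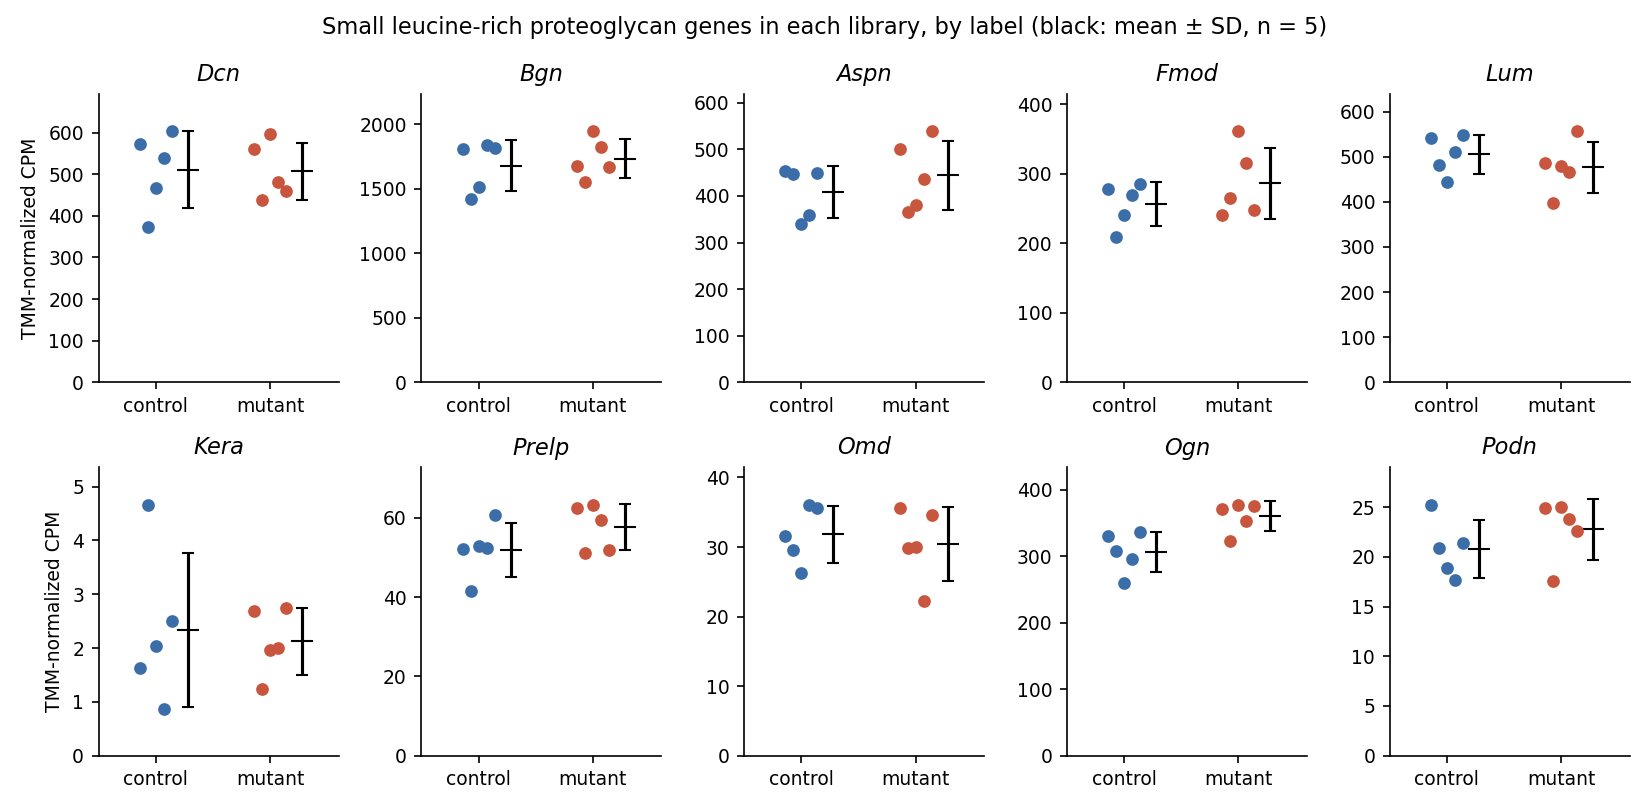
TMM-normalized CPM of each SLRP gene in every library, control-labelled in blue and mutant-labelled in red, with the mean ± SD in black (n = 5 each). The groups overlap for all 10 genes, and for *Ogn* only mutant 2, at 324 CPM, lies within the control range of 260.3 to 336 CPM.

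None of the class I genes passed the test at either threshold. *Dcn*, which encodes decorin, the dermatan sulfate proteoglycan that decorates collagen fibrils, stood at 573, 374, 466, 539 and 604 CPM in control-labelled libraries 1 to 5. In mutant-labelled libraries it stood at 561, 438, 596, 482 and 459 CPM. The lowest and the highest value were both control-labelled, and the groups overlapped over most of their range. It differed by a log2 fold change of -0.01, with a 95% interval of -0.30 to 0.28 (adjusted p = 0.991 in edgeR). The sign turned without any of 6 single libraries (range -0.097 to 0.062), and the value was -0.13 without control 2 and mutant 1 and 0.18 with an osteoblast score as a covariate. That score is the mean of the 17 osteoblast genes, scaled per gene, in the same libraries. It was 0.0085 to 0.98 in control-labelled and -1.22 to 0.26 in mutant-labelled libraries. A fit with this score therefore also takes up part of the difference between the labels, here and below. Mutant 1, the library high in hypodermal fibroblast markers, was at 561 CPM and lay within the range of the other libraries.

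*Bgn* encodes biglycan, which carries a pair of glycosaminoglycan chains and is abundant in bone matrix. Its control-labelled libraries were at 1808, 1417, 1509, 1841 and 1813 CPM and its mutant-labelled libraries at 1673, 1553, 1946, 1823 and 1671 CPM. Control 2 and control 3 were the lowest and mutant 3 the highest. For *Bgn* the log2 fold change was 0.05, with an interval of -0.17 to 0.26, so a rise or fall of more than 1.20-fold lies outside the interval (adjusted p = 0.943 in edgeR). The fold change of *Bgn* was 4.6e-05 without control 2, 0.090 without mutant 2 and 0.21 with the osteoblast score as a covariate. *Aspn* encodes asporin, which lacks a glycosaminoglycan chain and binds TGFβ and collagen. It ranged from 339 to 453 CPM in control-labelled libraries and from 366 to 539 CPM in mutant-labelled libraries. Mutant 1 and mutant 5, at 500.0 and 539 CPM, lay above all controls and the other 3 mutants lay among them. *Aspn* had a log2 fold change of 0.12, with an interval of -0.15 to 0.39 (adjusted p = 0.861 in edgeR), and it was 0.040 without mutant 5 and 0.19 without mutant 2.

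Among class II genes, *Fmod*, *Lum*, *Prelp*, *Omd* and *Kera* had fitted fold changes on both sides of 0. *Fmod* encodes fibromodulin, a keratan sulfate proteoglycan of tendon that controls fibril growth and collagen cross-linking. Its values were 278, 209, 241, 269.6 and 285 CPM in control-labelled libraries and 241, 265, 361, 315 and 248 CPM in mutant-labelled libraries. Mutant 3 and mutant 4 exceeded every control, and the other 3 did not. Between the labels *Fmod* differed by a log2 fold change of 0.16, with an interval of -0.11 to 0.42 (adjusted p = 0.806 in edgeR), and it was 0.067 without mutant 3 and 0.22 without mutant 1. *Lum* encodes lumican, which shares a collagen-binding region with fibromodulin. *Lum* ranged from 444 to 548 CPM in control-labelled libraries and from 398 to 557 CPM in mutant-labelled libraries. Its log2 fold change was -0.08, with an interval of -0.28 to 0.12 (adjusted p = 0.872 in edgeR), and both extremes were mutant-labelled. The fold change of *Lum* was -0.14 without mutant 5, -0.018 without mutant 2 and 0.11 with the osteoblast score as a covariate.

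*Prelp* encodes a basic protein that links collagen to heparan sulfate, as in basement membranes and cartilage. Its mean was 51.9 ± 6.83 CPM in controls and 57.7 ± 5.81 CPM in mutants by label, and mutant 1 and mutant 3, at 62.4 and 63.3 CPM, were above the control maximum of 60.7 CPM. The log2 fold change of *Prelp* was 0.15, with an interval of -0.06 to 0.37 (unadjusted p = 0.148 in edgeR), and without control 5 it was 0.22, with an unadjusted p of 0.0383 and an adjusted p of 0.779. Without control 2 it was 0.088, and without control 2 and mutant 1 it was 0.06. *Prelp* shares 350 exon bases with *Gm15851* on the opposite strand, and the counting is not stated to use strand. *Omd* encodes osteomodulin, a keratan sulfate proteoglycan of mineralized tissue made by osteoblasts. Its values were 31.5, 29.6, 26.3, 36.1 and 35.6 CPM in control-labelled libraries and 35.6, 29.8, 30.0, 22.2 and 34.6 CPM in mutant-labelled libraries. Mutant 4 was the lowest and the other 4 mutants lay within the control range. The log2 fold change of *Omd* was -0.06, with an interval of -0.34 to 0.21, and it was 0.039 without mutant 4 and 0.098 with the osteoblast score as a covariate.

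*Kera* encodes keratocan, known for its part in corneal transparency. It rested on 21 to 136 counts per library, and the highest value, 4.67 CPM, was that of control 2, one of the libraries high in muscle markers. The other 9 libraries lay between 0.858 and 2.74 CPM. The log2 fold change of *Kera* was -0.14 with an interval of -0.98 to 0.69 and without control 2 it was 0.28. Any level from 0.506 to 1.62 times that of the controls lies within the interval, and smaller changes were not detectable at this depth and spread. *Podn* encodes podocan, a class V SLRP first described in the kidney. It ranged from 17.7 to 25.2 CPM in control-labelled libraries and from 17.5 to 25.0 CPM in mutant-labelled libraries. 4 of the 5 mutant-labelled libraries were at 22.6 CPM or above, with mutant 2 lowest. Its log2 fold change was 0.13, with an interval of -0.12 to 0.38 (unadjusted p = 0.283 in edgeR), and without mutant 2 it was 0.21 with an unadjusted p of 0.0425 and an adjusted p of 0.712. Without control 4 it was 0.075, with an unadjusted p of 0.531.

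**Figure D3:**
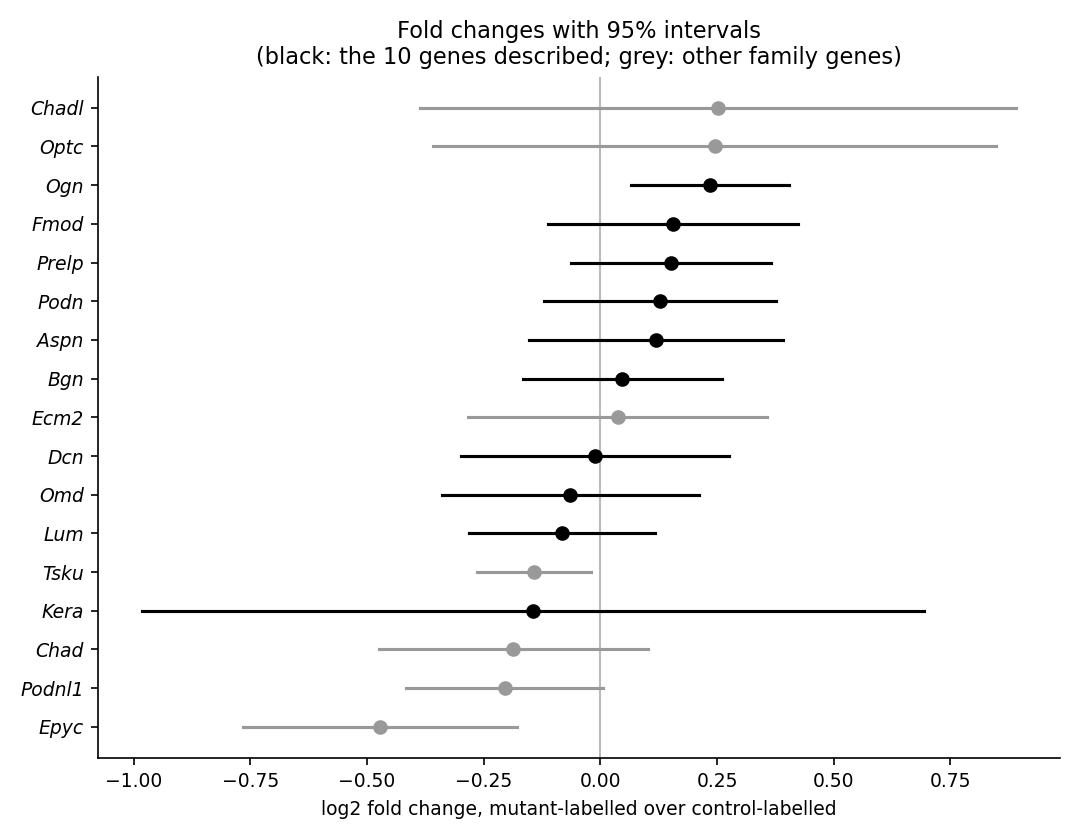
Log2 fold change of mutant-labelled over control-labelled libraries for the 10 SLRP genes (black) and for 7 other family genes (grey), with 95% intervals from the edgeR fit of all 10 libraries. Of the black intervals, that of *Ogn*, 0.07 to 0.40, is the one that does not include 0.

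Ratios between genes within a library do not depend on the scaling between libraries, and 5 were compared. The log2 ratio of *Omd* to *Ogn*, neighbours on chromosome 13, was -3.39, -3.38, -3.31, -3.03 and -3.24 in control-labelled libraries 1 to 5. In mutant-labelled libraries 1 to 5 it was -3.39, -3.44, -3.65, -3.99 and -3.44. All mutant-labelled libraries except mutant 1 lay below every control. The mean was -3.27 ± 0.14 in controls and -3.58 ± 0.25 in mutants, so that there was 0.805 times as much *Omd* per *Ogn* (difference -0.31, two-sided exact permutation p = 0.0159, adjusted over the 5 ratios p = 0.0794). The ratio therefore did not pass after adjustment. Without control 4 the difference was -0.25 and without control 5 it was -0.30, each with an exact permutation p of 0.0714.

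The ratio of *Aspn* to *Ogn* had a log2 value of 0.41 ± 0.10 in controls and 0.29 ± 0.20 in mutants (exact permutation p = 0.262), a difference of -0.12 that was -0.056 without mutant 3 and -0.18 without mutant 5. The ratio of *Bgn* to *Dcn*, the closest relatives in class I, was 1.73 ± 0.13 and 1.78 ± 0.14 (exact permutation p = 0.548). Its difference of 0.052 was 0.017 without control 5 or mutant 4, 0.10 without control 2 or mutant 1, and 0.15 without both of the latter (exact permutation p = 0.0571). Those of *Lum* to *Dcn* and of *Fmod* to *Prelp*, the cluster neighbours on chromosomes 10 and 1, differed by -0.08 and -0.0076, with exact permutation p-values of 0.508 and 0.968. In *Lum* to *Dcn*, control 2 and mutant 5 stood above the other 8 libraries, and in *Fmod* to *Prelp* mutant 1 stood below the other 9. Without control 2 the difference in *Lum* to *Dcn* was 0.0064, and without mutant 1 that in *Fmod* to *Prelp* was 0.080.

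**Figure D4:**
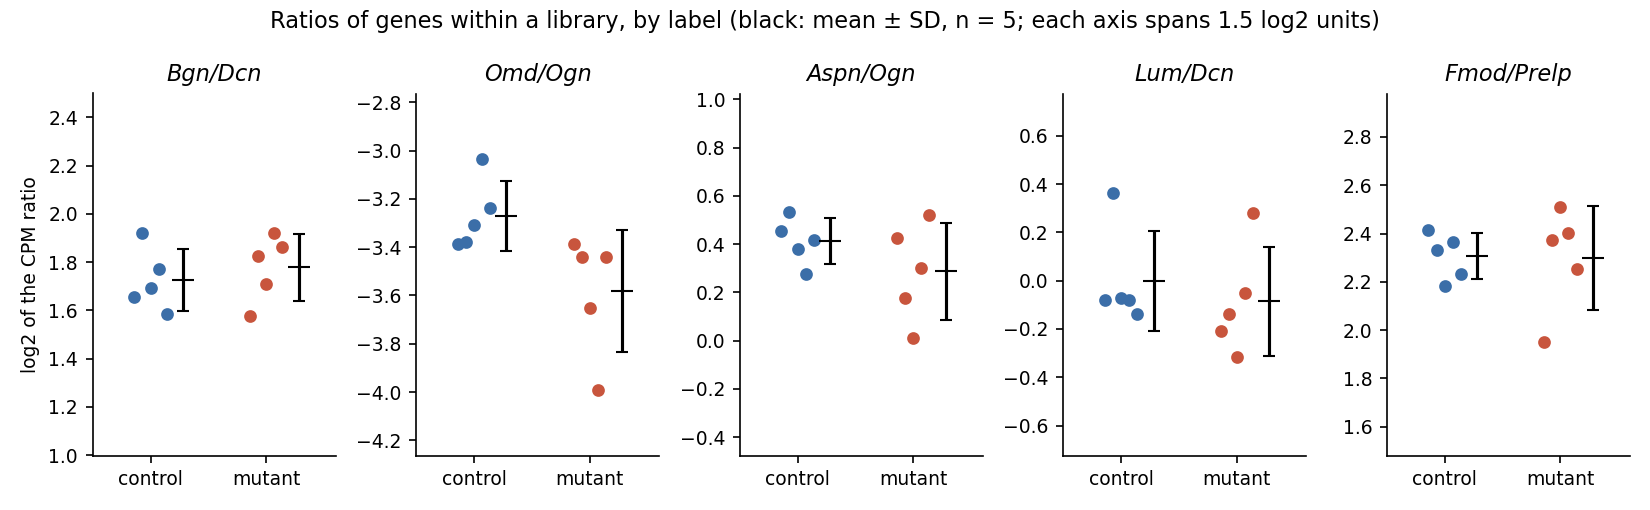
Log2 ratio of 2 SLRP genes within each library for 5 pairs, control-labelled in blue and mutant-labelled in red, with the mean ± SD in black (n = 5). All axes span the same number of log2 units, and the ratio of *Omd* to *Ogn* shows the widest separation, at -3.27 in controls and -3.58 in mutants.

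Across all 10 libraries, which share depth and scaling between genes, 37 of the 45 pairs of SLRP genes had a positive correlation of log2 CPM, with a median Pearson's r of 0.38. The highest r was that of *Bgn* and *Fmod*, at 0.86 (permutation p = 0.0011, adjusted over 45 pairs p = 0.0495) and Spearman's rho = 0.88 (permutation p = 0.00178, adjusted p = 0.0801). Without the 2 libraries farthest from the median of *Bgn*, r was 0.75, and with the group means removed it was 0.86. The order of the pairs changed with these checks, as *Dcn* and *Prelp* had the highest r with the group means removed (0.90), and *Omd* and *Ogn* without the 2 farthest libraries (0.75). *Bgn* and *Fmod* was the only pair past adjustment by r, and none of the 45 pairs passed by rho. *Dcn* and *Bgn* had r = 0.84 (permutation p = 0.00234, adjusted p = 0.0527) and rho = 0.75 (permutation p = 0.0167, adjusted p = 0.226), and *Dcn* and *Prelp* had r = 0.81 (permutation p = 0.00457, adjusted p = 0.0685) and rho = 0.79 (permutation p = 0.00861, adjusted p = 0.194). For *Dcn* and *Bgn* r was 0.73 without the 2 libraries farthest from the median of *Dcn*, and for *Dcn* and *Prelp* it was 0.56.

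*Ogn* had its highest r with *Podn*, at 0.72 (permutation p = 0.01855, adjusted p = 0.166; rho = 0.70, permutation p = 0.0311, adjusted p = 0.226), which was 0.68 without the 2 farthest libraries and 0.75 with the group means removed. This first place changed with the checks. With the group means removed *Ogn* had its highest r with *Lum*, at 0.84 in place of 0.32, and without the 2 farthest libraries with *Omd*, at 0.75. With its cluster neighbour *Aspn* the r of *Ogn* was 0.68 (permutation p = 0.0299, adjusted p = 0.192; rho = 0.62, permutation p = 0.0615, adjusted p = 0.308), but it was 0.32 without the 2 farthest libraries and rests on them, and with the group means removed it was 0.73. With *Omd*, the nearer neighbour, r was 0.20 (permutation p = 0.578; rho = 0.15, permutation p = 0.680), but it was 0.75 without the 2 libraries farthest from the median of *Omd* and 0.48 with the group means removed, so the value depends on those libraries. The other neighbours had r of 0.31 (*Aspn* and *Omd*), 0.44 (*Dcn* and *Lum*), 0.21 (*Lum* and *Kera*) and 0.71 (*Fmod* and *Prelp*), none of which passed after adjustment. Without the 2 farthest libraries these were 0.42, 0.45, -0.20 and 0.25. Groups of 5 are too few for a correlation within each label.

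**Figure D5:**
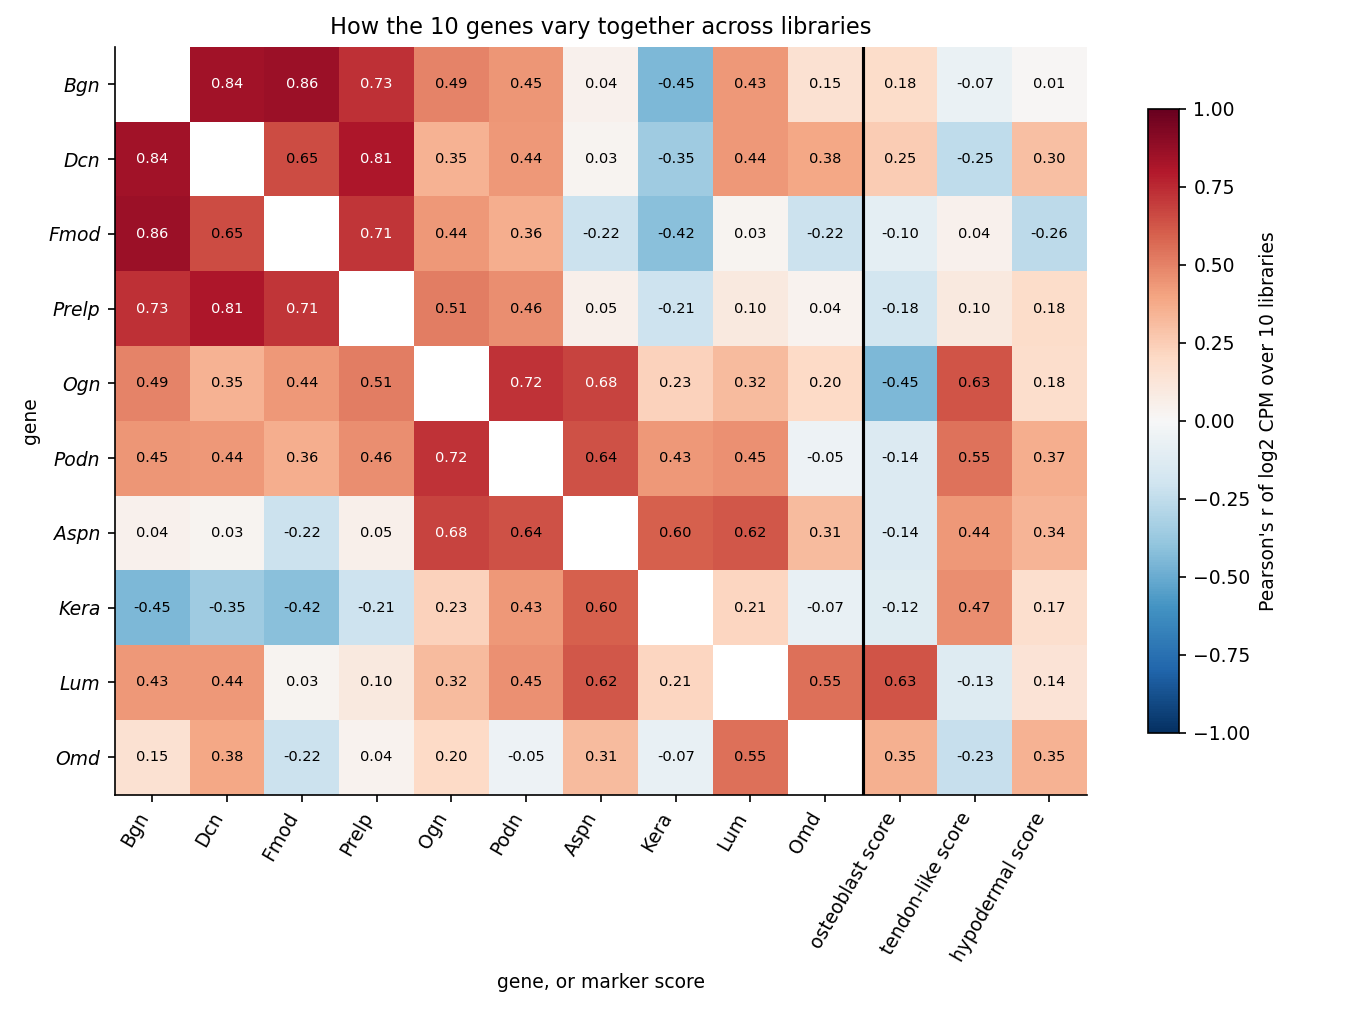
Pearson's r of log2 CPM over the 10 libraries between SLRP genes (left of the line) and between each gene and 3 marker scores (right of the line), red for positive and blue for negative values. *Bgn*, *Dcn*, *Fmod* and *Prelp* share values of 0.65 to 0.86, and *Omd* and *Kera* stay at or under 0.60 with every other gene.

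The same measure was taken against the mean level of marker genes, for 30 pairs of an SLRP gene and a score. None passed after adjustment. *Ogn* had r = 0.63 with the tendon-like score (permutation p = 0.0499, adjusted p = 0.772; rho = 0.70, permutation p = 0.0313, adjusted p = 0.939), 0.78 without the 2 farthest libraries and 0.18 with the group means removed. *Lum* had r = 0.63 with the osteoblast score (permutation p = 0.0515, adjusted p = 0.772; rho = 0.47, permutation p = 0.180, adjusted p = 0.992), 0.21 without the 2 farthest libraries and 0.64 with the group means removed.

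Among 11015 tested genes with a mean of at least 5 CPM, the genes most like each SLRP over the 10 libraries were read by Pearson's r, as a description of the best of many. *Bgn* was closest to *Efnb1* (r = 0.95), which encodes the membrane ligand ephrin B1, and then to *Snx2* (0.94) and *Fmo1* (0.92). *Fmod* was closest to *Kdr* (0.94), the VEGF receptor of endothelium, *Igfbp2* (0.94), which binds insulin-like growth factors, and *Brix1* (0.94). *Dcn* was closest to *Cd163* (0.92), a scavenger receptor of macrophages, *Pid1* (0.92) and *Selenop* (0.91), the plasma selenium carrier. *Ogn* was closest to *Arhgap5* (0.97), *Zfp354c* (0.93) and *Tasor2* (0.92). Of these, *Arhgap5*, *Zfp354c* and *Igfbp2* had an unadjusted p under 0.05 between the labels in edgeR, with log2 fold changes of 0.20, 0.18 and 0.36.

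*Aspn* was closest to *Rgs19* (0.88), *Prps1l3* (0.87) and *Prrx1* (0.85), the last a homeobox gene of skeletal mesenchyme. *Lum* was closest to *Wapl* (0.96), *Lamp2* (0.94) and *Tmtc3* (0.92), and *Prelp* to *Dock2* (0.96), *Capn7* (0.92) and *Serping1* (0.89). *Omd* was closest to *Brwd3* (0.92), *Cops2* (0.91) and *Uhrf1bp1l* (0.91), *Podn* to *Mpdz* (0.93), *Atm* (0.91) and *Reck* (0.91), and *Kera* to *Ldlrad3*, *Zfp64* and *Jarid2* (0.88 each).

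8 other genes of the family were in the table and 7 were tested, of which 0 passed the adjusted test, 2 were lower at an unadjusted p under 0.05, where 3.82% of all genes were lower, and none was higher. *Epyc*, which encodes epiphycan, a class III SLRP of growth cartilage, stood at 17.3, 13.9, 17.6, 22.0 and 24.0 CPM in control-labelled libraries and at 12.7, 12.6, 15.6, 13.8 and 13.4 CPM in mutant-labelled ones. 4 mutants lay below every control, and mutant 3 lay within the control range. The log2 fold change of *Epyc* was -0.47 ± 0.13 SE (unadjusted p = 0.00439 and adjusted p = 0.411 in edgeR). With the osteoblast score as a covariate it was -0.22 with an unadjusted p of 0.290 in edgeR, where the score takes up part of the difference between the labels. *Epyc* shares 1041 exon bases with *Gm10754* on the opposite strand. *Tsku*, which encodes the secreted signaling modulator tsukushi, had a log2 fold change of -0.14 ± 0.06 SE (unadjusted p = 0.0262 and adjusted p = 0.634 in edgeR), and -0.03 with the osteoblast score as a covariate. Without control 1, 3 or 4 or mutant 2 or 4 the unadjusted p of *Tsku* was 0.0588 to 0.0732.

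None of the other family genes passed the unadjusted threshold. *Podnl1* had a log2 fold change of -0.20 (unadjusted p = 0.0556 in edgeR), *Chad*, for chondroadherin, -0.19 (unadjusted p = 0.184) and *Ecm2*, the fourth gene of the chromosome 13 cluster, 0.04 (unadjusted p = 0.806). *Chadl* was at 1.00 to 2.85 CPM, *Optc*, which encodes opticin of the eye, at 0.464 to 1.16 CPM, and *Nyx*, at 1 to 8 counts per library, was below the filter.

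The enzymes that build the sugar chains of SLRPs were counted in the same fit. Of 23 genes for the linker and for chondroitin and dermatan sulfate, 2 were lower at an unadjusted p under 0.05 and none was higher, with a median log2 fold change of -0.0087. They were *Chst11*, a chondroitin 4-sulfotransferase, from 50.05 ± 2.22 to 43.2 ± 4.86 CPM (log2 fold change -0.21, unadjusted p = 0.0158 in edgeR), and *Chst15*, which sulfates chondroitin at a further position, from 44.0 ± 2.16 to 40.4 ± 1.22 CPM (-0.12, unadjusted p = 0.0245). Of 10 tested genes for keratan sulfate synthesis none had an unadjusted p under 0.05, and their median was -0.07. These counts stand beside 7.49% of all genes at that threshold.

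Of 16 collagens, ligands and processing enzymes that work with SLRPs, 1 was lower at an unadjusted p under 0.05, *Tgfb1*, a growth factor that decorin binds, at 138 ± 10.7 and 115 ± 11.4 CPM (log2 fold change -0.26, adjusted p = 0.432 in edgeR). Of 10 surface proteins reported to bind SLRPs, 2 were lower, the collagen receptor subunit *Itga2* (-0.25, unadjusted p = 0.0044 in edgeR) and the hyaluronan receptor *Cd44* (-0.22, unadjusted p = 0.0402). These counts of 1 of 16 and 2 of 10 stand beside 3.82% of all genes that were lower at that threshold. None of these genes passed the adjusted test.

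Marker genes of the cells of the excised tissue were read in the same fit, and none passed an adjusted p of 0.05 in edgeR. All 17 osteoblast genes had a fold change below 0, where 49.7% of all genes did, and 9 had an unadjusted p under 0.05, with a median log2 fold change of -0.22, while 3.82% of all genes were lower at that threshold and 3.68% higher. The 4 with the smallest p were *Dmp1* (-0.58), *Alpl* (-0.38), *Ibsp* (-0.58) and *Mepe* (-0.83), all genes of mineralizing matrix. Of 6 tendon-like genes 4 were higher at that threshold, *Matn4* (0.64), *Tnmd* (0.58), *Mkx* (0.31) and *Scx* (0.35), and the fitted values of the other 2, *Egr1* (-0.22) and *Thbs4* (-0.56), lay below 0 without passing it. Of 4 ectocranial genes 2 were higher, *Fgf18* (0.62) and *C1qtnf3* (0.36), and of 9 cartilage genes 1, *Col2a1* (0.88). Of the hypodermal (10), meningeal (8), muscle (7), epidermal (5), endothelial (6), macrophage and osteoclast (7), erythroid (7) and neuronal (7) genes tested, none had an unadjusted p under 0.05. The summed tendon-like markers were 196 to 248 CPM in control-labelled and 235 to 325 CPM in mutant-labelled libraries. The osteoblast score was itself mostly lower in mutant-labelled libraries, and when it entered the fit as a covariate, *Ogn* had a log2 fold change of 0.30 (unadjusted p = 0.0287 in edgeR). Without control 2, mutant 1 and mutant 2, *Ogn* had 0.28 (unadjusted p = 0.0143 in edgeR). The ratio of *Omd* to *Ogn* was not fitted with that covariate, and without control 2 and mutant 1 it differed by -0.39 (exact permutation p = 0.0286).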

How the data were processed

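Total RNA of the AF was made into stranded libraries and sequenced as single reads. The authors deposited estimated counts, 1 value for each gene and library, without scaling, of which 66.4% were exactly whole as written. The submitters' processing notes name Partek and mm10, and the aligner, counter, strand setting and test are not given in the sources used here. Whole counts had been assumed, so the estimated counts were rounded before testing, and edgeR 4.0.16 (R 4.3.3) was used with TMM normalization, its expression filter (16267 genes tested, 6813 left out) and the quasi-likelihood test without covariates. P-values were adjusted by Benjamini-Hochberg across the whole table of tested genes. Log2 CPM used a prior count of 0.5. Single values were compared by two-sided exact permutation tests and correlations by 1e+05 permutations. Exon lengths came from GENCODE M21, which matched the position of all 10 genes. The alternatives were DESeq2 1.42.0, limma 3.58.1, other scalings, filters and covariates, a replicate block and leaving out libraries.

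The genes and lists were chosen with earlier results of these data known. Named genes were the 10 SLRPs, *Fgfr2*, the other family genes, the 3 genes most correlated with each SLRP, and up to 4 genes per list at an unadjusted p under 0.05. *Egr1*, *Thbs4*, *Col1a1*, *Col1a2*, *Sp7* and *Ifitm5* were named after their values were seen. The fit was tested on simulated data.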

Additional observations from a re-analysis of the deposited data

How the results depend on the processing

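No SLRP gene was called at an adjusted p of 0.05 or 0.1 under any alternative or without any 1 library, and 1 was called at an unadjusted p of 0.05. The count at that unadjusted threshold was 0 with library size alone and 1 to 2 without single libraries (2 without control 5, where *Prelp* was added, and 2 without mutant 2, where *Podn* was). Library size alone moved the median log2 fold change of all genes from 0.0007 to -0.038. *Dcn* was -0.13 without control 2 and mutant 1, changed sign with limma voom (0.0024) and with the osteoblast score as a covariate (0.18), and lay between -0.097 and 0.062 without single libraries (above 0 without control 1, 4 or 5 or mutant 2, 4 or 5). With that covariate *Lum* (0.11) and *Omd* (0.098) also changed sign, *Bgn* (0.21), *Fmod* (0.30), *Prelp* (0.25), *Podn* (0.20) and *Kera* (-0.39) moved away from 0 by over 1.5 times, and the median of the 10 genes was 0.19 in place of 0.083. *Omd* lay between -0.12 and 0.039 without single libraries. *Kera* changed sign with limma voom (0.18), the replicate block (0.021), without control 2 and mutant 1 (0.18) and without these and mutant 2 (0.36), and lay between -0.35 and 0.28 without single libraries. Both sets were chosen after the data were seen. The differences in mean log2 CPM without single libraries were -0.11 to 0.064 for *Dcn*, -0.0079 to 0.089 for *Bgn*, -0.28 to 0.32 for *Kera* and -0.14 to 0.036 for *Omd*. That of *Ogn* was 0.23 without control 2 and mutant 1, where its exact permutation p was 0.0857. The ratio of *Omd* to *Ogn* differed by -0.36 to -0.21 without single libraries. That of *Lum* to *Dcn* differed by -0.18 to 0.0064, and by 0.037 without control 2 and mutant 1, and that of *Fmod* to *Prelp* by -0.061 to 0.080, and by 0.086 without that pair. By the longest transcript, the control levels were 109 CPM per kb for *Dcn*, 629 for *Bgn* and 5.72 for *Podn*.

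*Fgfr2* kept its direction and lost the adjusted call with library size alone (0.63), no filter (0.67), the replicate block (0.68), *Xist* (0.66) or the osteoblast score (0.74) as a covariate, and without any single library other than control 2 or mutant 2 (range over all 10 0.63 to 0.75, adjusted p 0.0090 to 0.26 in edgeR). The replicate numbers did not pair the libraries, as same-numbered libraries correlated at -0.21 to 0.14 and none had its best match in its own number, and with the replicate block *Ogn* had a log2 fold change of 0.24 (unadjusted p = 0.0179 in edgeR) and 1 gene in place of 3 was called overall. The cause of these changes was not tested. DESeq2's Wald test called 97 of all genes in place of 3, and gave *Ogn* an unadjusted p of 0.0015 and an adjusted p of 0.143. *Kera* rests on 21 to 136 counts per library, and its difference in mean log2 CPM, 0.019, has the opposite sign to its fitted fold change.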
